A study of Mus musculus with 4 samples.

Results

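The comparison set the array from 3T3-L1 cells that received an siRNA against Rfk beside the array from cells that received a control siRNA. It covered 10788 of the 18194 genes named on the arrays. Where a gene had several probe sets, the one with the largest log2 mean over all 4 arrays stood for it, and genes whose mean fell short of the probe set median (50.9 as a signal) were left out. All values are MAS5 signals, a linear intensity per probe set, and a difference is the log2 signal of the rfk siRNA array minus that of the control siRNA array. There was 1 array per group, so no test was possible, and no value below has a replicate error. "Higher" and "lower" describe these 2 arrays.

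3T3-L1 is an established mouse embryonic fibroblast line that accumulates fat after hormonal induction. Both cultures were transfected as preadipocytes, the control with siGL3, and insulin, dexamethasone and 3-isobutyl-1-methylxanthine were added 24 h later in medium with 25 mM glucose and 10% serum. RNA was taken 24 h after induction. The other 2 arrays held cells with an siRNA against aof2 and cells whose induction medium contained tranylcypromine, an inhibitor of LSD1 and monoamine oxidases, for which the labels name no siRNA. The title of the control array carries a 2 whose meaning the labels do not give.

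Riboflavin kinase, the product of Rfk, phosphorylates vitamin B2 to flavin mononucleotide, which a second enzyme turns into flavin adenine dinucleotide. These cofactors serve dehydrogenases of fatty acid breakdown and the respiratory chain, reductases of the cytosol, and the histone demethylase LSD1, the product of Kdm1a (formerly Aof2). The comparison asks which transcripts differ when the kinase is depleted early in adipogenesis, a stage at which C/EBP factors precede PPAR gamma and its lipid-storage targets.

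The target itself was the lowest of all bright genes, where bright means a mean log2 signal at or above the 75th percentile of probe sets, a signal of 414. The signal of Rfk was 2122 with control siRNA and 573 with rfk siRNA, against 2018 with aof2 siRNA and 2334 with tranylcypromine. Its log2 difference was -1.89, and its 3 probe sets left 27.0%, 30.6% and 39.7% of the control signal. The 3 arrays without the Rfk siRNA lay close together and the rfk siRNA array stood below all of them. Kdm1a, which the other siRNA targets, differed by -0.01.

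The spread of the comparison was small for most genes. The median log2 difference of all compared genes was -0.01, its quartiles were -0.17 and 0.15, and 92.3% of genes differed by less than 1.5-fold. At least 2-fold higher were 100 genes (0.927% of those compared), and 87 (0.806%) were at least 2-fold lower. The larger part of these calls came from dim genes: of the 6873 bright genes 23 (0.335%) were 2-fold higher and 17 (0.247%) were 2-fold lower. In 36 of the 100 and 42 of the 87, the dimmer of both signals lay under the filter, where MAS5 values scatter widely. The 18 hybridisation control probe sets differed by -0.11 to 0.21, and the 24 poly-A control probe sets by -0.02 to 0.78 with a mean of 0.17. The 3' over 5' signal ratio of Gapdh was 0.834 in the control array and 0.841 in the rfk siRNA array.

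**Figure D1:**
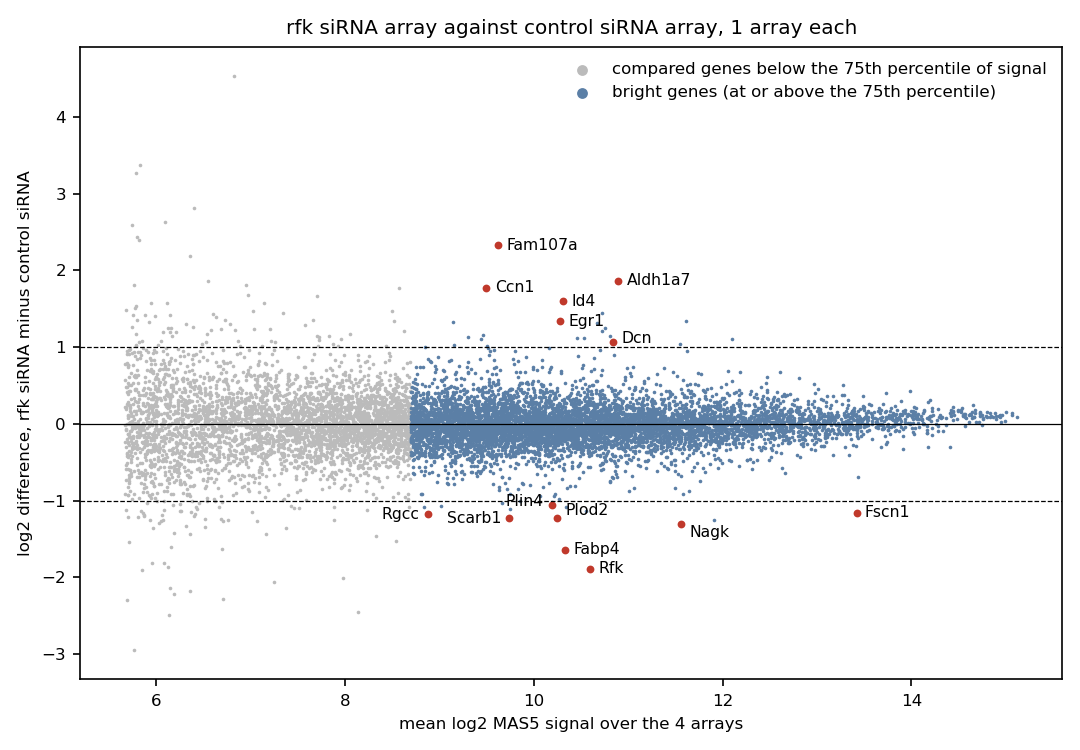
Each point is 1 of the 10788 compared genes, with its mean log2 MAS5 signal over the 4 arrays on the x axis and its log2 difference (rfk siRNA minus control siRNA) on the y axis. Dashed lines mark 2-fold, and named genes are in red. Rfk is the lowest bright gene at -1.89 and Fam107a the highest at 2.33, while differences fan out among dim genes.

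The lowest bright genes after Rfk were Fabp4, Nagk, 1810058I24Rik, Plod2 and Scarb1, which do not belong to 1 pathway. Fabp4, a lipid carrier of fat cells and a PPAR gamma target, measured 2463 with control siRNA and 791 with rfk siRNA, a difference of -1.64, with 1301 for aof2 siRNA and 1093 for tranylcypromine. The control array was thus the highest and the rfk siRNA array the lowest of the 4. Plin4, a coat protein of lipid droplets, had 1389 with control siRNA and 667 with rfk siRNA, while the aof2 siRNA and tranylcypromine arrays gave 1553 and 1292. Scarb1, the receptor that takes up cholesterol esters from high-density lipoprotein, had 1039 and 444, against 1054 and 1104 in the same other arrays. For both genes the 3 arrays without the Rfk siRNA lay together. The 3 probe sets of Scarb1 gave -1.30, -1.23 and -0.81, whereas Plin4 had 1 probe set. Medag, a gene named for its part in mesenteric fat formation, differed by -1.11 with 1250 with control siRNA and 580 with rfk siRNA.

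Fscn1, which encodes the actin-bundling protein fascin, was among the brightest genes of the series and had 13983 with control siRNA and 6282 with rfk siRNA. It had 13203 with aof2 siRNA and 12389 with tranylcypromine, and its dimmer probe set gave -1.53 where the brighter one gave -1.15. Epb41l1, which links membrane proteins to the cytoskeleton, differed by -1.14. Plod2, the lysyl hydroxylase that prepares collagen for crosslinking, had 2053 with control siRNA and 874 with rfk siRNA, and both of its probe sets gave -1.23. Here the other arrays were low as well, at 1194 and 1027, so the control array stood alone. Col1a1, a chain of type I collagen, had 1438 and 715, and again the tranylcypromine array, at 729, was as low.

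Several further bright genes lower with rfk siRNA act in metabolism or signalling. Nagk, the N-acetylglucosamine kinase, stood at -1.31 and Nnmt, which methylates nicotinamide, at -1.08. Rgcc, a regulator of the cell cycle, was at -1.18, with 465 with control siRNA and 206 with rfk siRNA, and with 643 and 793 in the aof2 siRNA and tranylcypromine arrays. Cda, cytidine deaminase, was at -1.08, the acute phase gene Orm2 at -1.07, the interleukin receptor chain gene Il13ra1 at -1.03 and Grb14, an adaptor that inhibits the insulin receptor, at -1.01. The second probe set of Nagk gave -0.15 from a control signal of 83.0, and that of the uncharacterised 1810058I24Rik gave 0.47 against -1.25, so those differences rest on 1 probe set. Nnmt, Cda, Orm2 and Grb14 also had only 1 probe set above the filter.

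The genes higher with rfk siRNA were led by Fam107a, an actin-associated stress-response gene, and by genes of secreted and regulatory proteins. Fam107a had a signal of 200 in the control array, 1003 with rfk siRNA, 2055 with aof2 siRNA and 947 with tranylcypromine. Aldh1a7, an aldehyde dehydrogenase close in sequence to Aldh1a1, had 834, 3039, 3708 and 1406 in the same order. Sema3c, a secreted semaphorin, had 840, 2280, 1873 and 2265, and its probe sets gave 1.44 and 1.73. In these genes the control array was the low one. The rfk siRNA array lay among the other treated arrays or, for Sema3c, just above them. Itga6, an integrin subunit, Krt15, a keratin, Scrn1, Ogn and Timp3, an inhibitor of matrix proteases, differed by 1.12 to 1.33, and the control array was the lowest of the 4 for each. The probe sets of Timp3 ran from 0.17 to 1.12 and those of Scrn1 from 0.38 to 1.33. Relative to the average of the 3 other arrays Scrn1 was at -0.17.

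For Id4, an inhibitor of helix-loop-helix transcription factors, the control array was again the lowest, but the rfk siRNA array stood apart from the other treated arrays. Id4 had 783 with control siRNA and 2377 with rfk siRNA, with 1560 and 893 in the aof2 siRNA and tranylcypromine arrays. Its 3 probe sets gave 1.16, 1.60 and 1.70. Ccn1, a matricellular protein that binds integrins, had 428, 1467, 742 and 587 in the control, rfk siRNA, aof2 siRNA and tranylcypromine arrays. Its brightest probe sets gave 1.78 and 1.64 and its dimmer ones 0.66 and 0.22. Dcn, the collagen-binding proteoglycan decorin, had 1798, 3763, 1592 and 1058 in that order, from 1 probe set above the filter. The rfk siRNA array was the highest of the 4 for each of these genes, by the widest margin for Dcn, whose smallest gap to another array was 1.07 on the log2 scale.

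**Figure D2:**
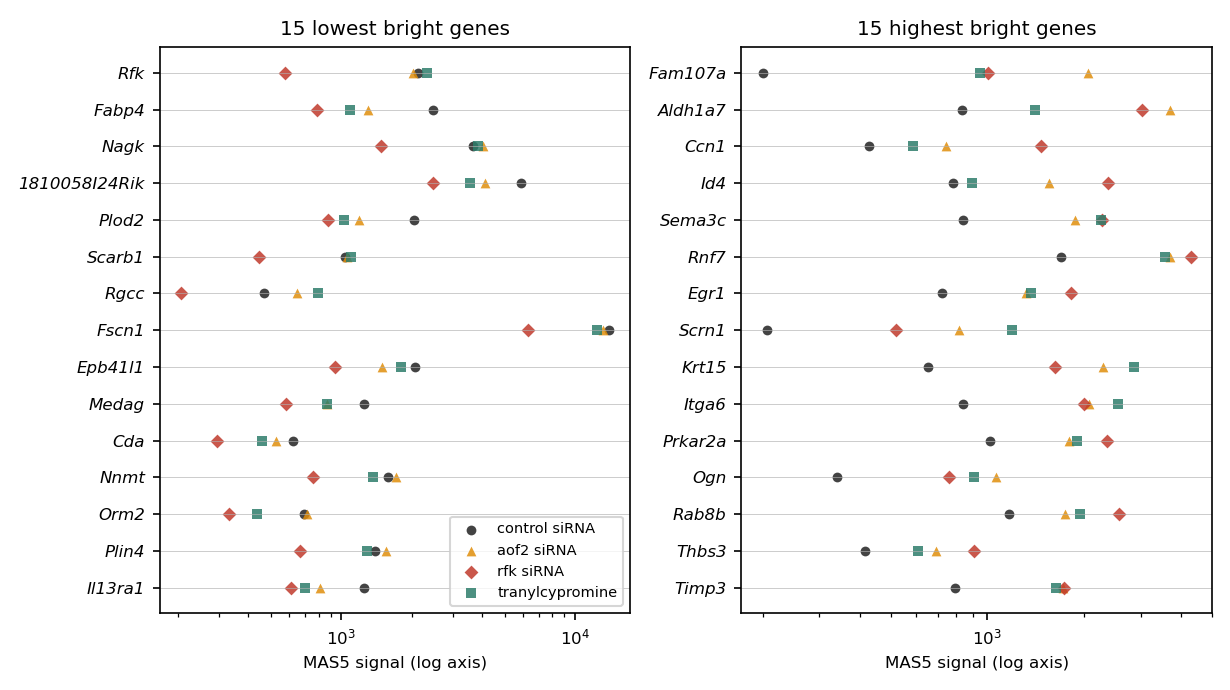
MAS5 signals on a log axis in each of the 4 arrays for the 15 bright genes with the lowest and the 15 with the highest difference from control. On the left the rfk siRNA array is the lowest of the 4 for all 15 genes, and on the right the control array is the lowest for all 15, with the rfk siRNA array highest for 9.

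Among the 15 lowest bright genes the rfk siRNA array was the lowest of the 4 in all 15, and in 10 it lay at least 1.5-fold below each other array. Among the 15 highest, the control array was the lowest of the 4 in all 15, and the rfk siRNA array lay at least 1.5-fold above each other array in 2, Id4 and Ccn1. Because the members were picked by their difference from control, a low rfk siRNA array among the lowest and a low control array among the highest are partly fixed by that choice. Over all bright genes, 39 (0.567%) lay at least 1.5-fold below each of the 3 other arrays with rfk siRNA and 10 (0.145%) lay that far above. The corresponding numbers below and above were 33 and 8 for the control array, 5 and 4 for the aof2 siRNA array, and 37 and 26 for the tranylcypromine array. With the average of the 3 others in place of the control array, 42 compared genes were 2-fold higher and 104 were 2-fold lower.

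Beyond genes already named, the 39 included Cd99l2, a cell surface glycoprotein gene, at 902 with control siRNA and 502 with rfk siRNA, with 3 probe sets between -0.94 and -0.83. They also held Sphk1, which makes sphingosine 1-phosphate (841 and 477), Zfyve21 (1429 and 805), Gchfr, the feedback regulator of tetrahydrobiopterin synthesis (1819 and 1085), Thbd, thrombomodulin (806 and 471), and Bcat1, the cytosolic branched-chain aminotransferase (3874 and 2306). Zfyve21 and Sphk1 had probe sets between -1.05 and -0.83 and between -0.86 and -0.82, whereas those of Bcat1 reached -0.15. The 10 on the upper side included Lifr, the receptor for leukemia inhibitory factor, at 1642 with control siRNA and 3061 with rfk siRNA. Elavl2, an RNA-binding protein gene, had 484 and 809, and Nrep had 970 and 1554. Umps, the last enzyme of pyrimidine synthesis, had 773 and 1218, but its probe sets ranged from -1.01 to 0.66.

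Probe sets of the same gene give a repeat measurement on the same RNA, not a replicate culture. In the 5228 genes with at least 2 probe sets above the filter, the probe sets of a gene lay apart by a median of 0.29 on the log2 scale. All probe sets were at least 1.5-fold higher in 47 of these genes (0.899%) and at least 1.5-fold lower in 37 (0.708%). Of the 25 bright genes past 2-fold with several probe sets, 23 had all of them on one side of 0 and 18 had all of them past 1.5-fold. For all 49 compared genes past 2-fold with several probe sets, these numbers were 41 and 32. Such genes were picked by 1 of the same probe sets, so their agreement is partly fixed by that choice. Without that choice, 2700 of the 5228 genes had all probe sets on one side of 0. By the probe set nearest to 0, the genes furthest above control after those already named were Abi3bp, a matrix-binding protein gene (1.47 and 1.48), Slc1a3, a glutamate transporter (1.30 to 1.89), Prkar2a, a regulatory subunit of protein kinase A (1.19 and 1.22), and Pde10a, a phosphodiesterase (1.06 and 1.74). Entpd7, Tril and Enc1 followed. On the lower side Fam110c (-1.32 and -1.09), the growth factor gene Hbegf (-1.32 and -0.92) and the stress-response gene Nupr1 (-0.85 and -0.83) joined Rfk, Fabp4, Plod2, Rgcc, Fscn1, Medag and Cd99l2.

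**Figure D3:**
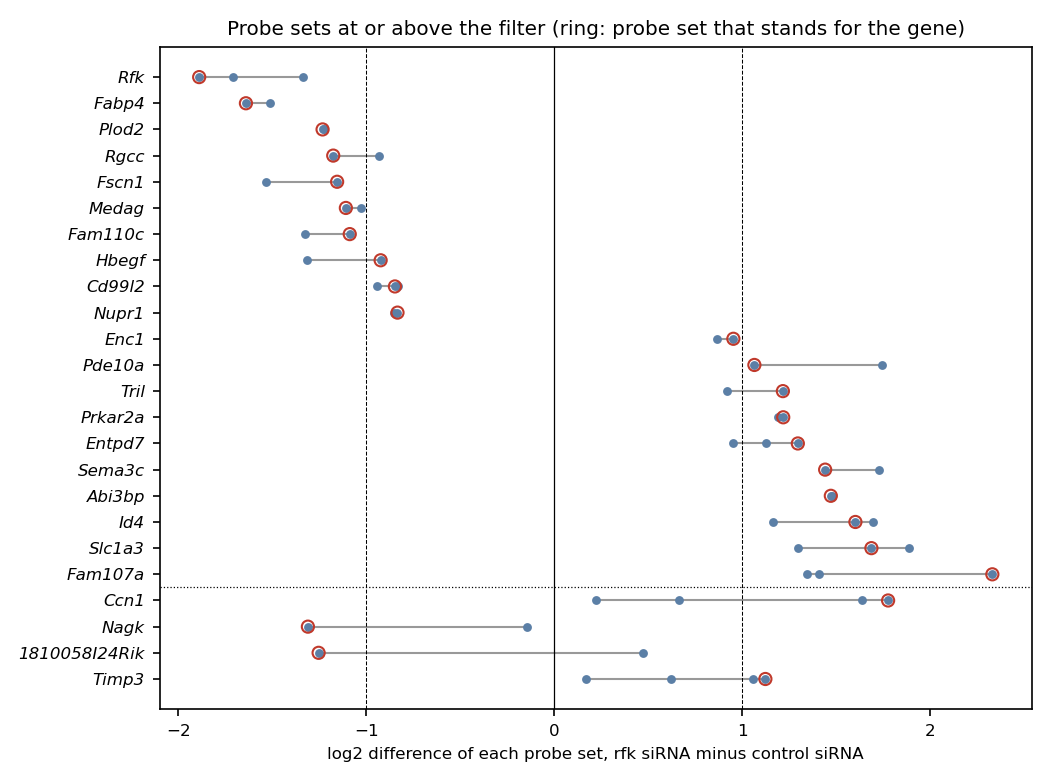
Log2 difference of each probe set at or above the filter, rfk siRNA minus control siRNA, for the 10 lowest and 10 highest genes by their probe set nearest to 0, and, under the dotted line, 4 genes whose probe sets spread widely. A ring marks the probe set that stands for the gene. Rfk spans -1.89 to -1.33 and Id4 1.16 to 1.70, whereas 1810058I24Rik spans -1.25 to 0.47.

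Apart from Rfk, genes of flavin supply differed little between both arrays. Flad1, the synthase that makes flavin adenine dinucleotide, had 394 with control siRNA and 374 with rfk siRNA, a difference of -0.08. Slc25a32, a mitochondrial carrier for folate and flavin, was at -0.02, and Blvrb, a flavin reductase, at -0.13. Acp1, an acid phosphatase with reported activity on flavin mononucleotide, was at 0.31, although its 5 probe sets reached down to 0.00, and the riboflavin transporter gene Slc52a3 lay below the filter. Slc52a3 measured 24.6 with control siRNA and 66.7 with rfk siRNA, both near or under the filter signal. Of the 5 compared genes of flavin supply, only Rfk passed 1.5-fold.

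Transcripts of enzymes that carry flavins showed no 2-fold difference. Of 68 such genes, 33 were of mitochondria and 35 of other compartments. With rfk siRNA 43 were lower and 25 higher, beside 48.5% of all compared genes above control. Their median was -0.06 against -0.01 for all compared genes. Past 1.5-fold were 4 of the 68, beside 3.92% of all compared genes on the higher and 3.8% on the lower side. None of the 4 was bright. Cry1, a clock protein with a flavin-binding fold, had 390 and 259, at -0.59. The others were Acox3, a peroxisomal acyl-CoA oxidase (0.84), Mical2, a monooxygenase that oxidises actin (0.77), and Pcyox1l (0.66), with control signals of 42.0, 37.1 and 97.3. Acox3 and Mical2 reached the filter only through arrays where they were high, which fixed their place in the count. Among bright members, Nqo2, a quinone reductase, was at -0.57, with probe sets from -0.57 to 0.39, and Pdpr, a regulator of pyruvate dehydrogenase phosphatase, at -0.54. Ndufv1, the flavin-carrying subunit of complex I, was at 0.10 and Acadsb, an acyl-CoA dehydrogenase, at 0.43.

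Genes of mitochondrial fuel use lay close to control. The 49 measured subunits of the respiratory chain and ATP synthase had a median of 0.04, ranged from -0.18 for Ndufs4 to 0.39 for Cox7c, whose other probe set gave -0.15, and none passed 1.5-fold. Of 21 fatty acid oxidation genes 8 were higher, with a median of -0.06, and of 28 genes of pyruvate dehydrogenase and the citric acid cycle 8 were higher, with a median of -0.07. Above control were 48.5% of all compared genes. The exception was Ppargc1a, the coactivator that induces mitochondrial genes, with 91.0 in the control array, 288 with rfk siRNA, 207 with aof2 siRNA and 350 with tranylcypromine, so that the control array was the low one. Its 5 probe sets lay between 0.81 and 1.66. Cpt2, an enzyme of fatty acid import into mitochondria, was at -0.37, the lowest of its list.

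Most measured genes of the lipid droplet lay below control, whereas most adipogenic transcription factors lay above it. The difference between these lists was not tested. The labels call these cells differentiating adipocytes, and 8 of 17 markers of mature fat cells, among them Adipoq, Cidec, Slc2a4 and Lep, were below the filter. Of the 9 compared markers 3 were higher and 6 lower, with a median of -0.11. The highest was Gpd1 at 0.91 (41.5 and 77.9), which is also in the list of fatty acid and triglyceride synthesis. Gpd1 reached the filter only through arrays where it was high. In bulk RNA, fewer cells of a type and less RNA per cell cannot be told apart. Of 15 compared genes of the lipid droplet and lipolysis 4 were higher (48.5% of all compared genes) and 11 lower, with a median of -0.24. At least 2-fold lower were 2 of them, Fabp4 and Plin4, beside 0.806% of all compared genes. Fitm2, which promotes droplet formation, was at -0.37, Abhd5, the activator of triglyceride lipase, at -0.36, Bscl2, the seipin gene, at -0.30, and the lipase gene Pnpla2 at -0.29. Hilpda, an inhibitor of that lipase, was higher at 0.49, and the caveolar genes Cav1 and Cavin1 were both at 0.11.

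Pparg, the nuclear receptor of fat cell formation, was at -0.77, with 1047 in the control array, 615 with rfk siRNA, 963 with aof2 siRNA and 771 with tranylcypromine. Of 24 adipogenic factors, 16 were higher (48.5% of all compared genes), the median was 0.03, and Pparg was the only one past 1.5-fold. Klf5, a Krüppel-like factor that acts upstream of Pparg, was at 0.51 (-0.30 relative to the average of the 3 other arrays), the Wnt effector gene Tcf7l1 at 0.42, Klf6 at 0.34 and Nr1h3, the liver X receptor, at -0.49 from a dim 103. Under 2 settings, the mean of all probe sets and the average of the other arrays as baseline, the median of these factors was -0.07 and -0.05. For triglyceride synthesis, Dgat2 and Dgat1, which catalyse its last step, were at -0.96 and -0.41, and the elongase gene Elovl6 was at 0.62. Against control, Dgat2 and Dgat1 were also lower with aof2 siRNA (-0.84 and -0.48) and with tranylcypromine (-0.85 and -0.21). The list of fatty acid and triglyceride synthesis was evenly split, with 11 of 22 members higher and a median of 0.03. Acaca, the first committed enzyme of fatty acid synthesis, was at 0.43, but at -0.11 with the mean of all its probe sets.

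**Figure D4:**
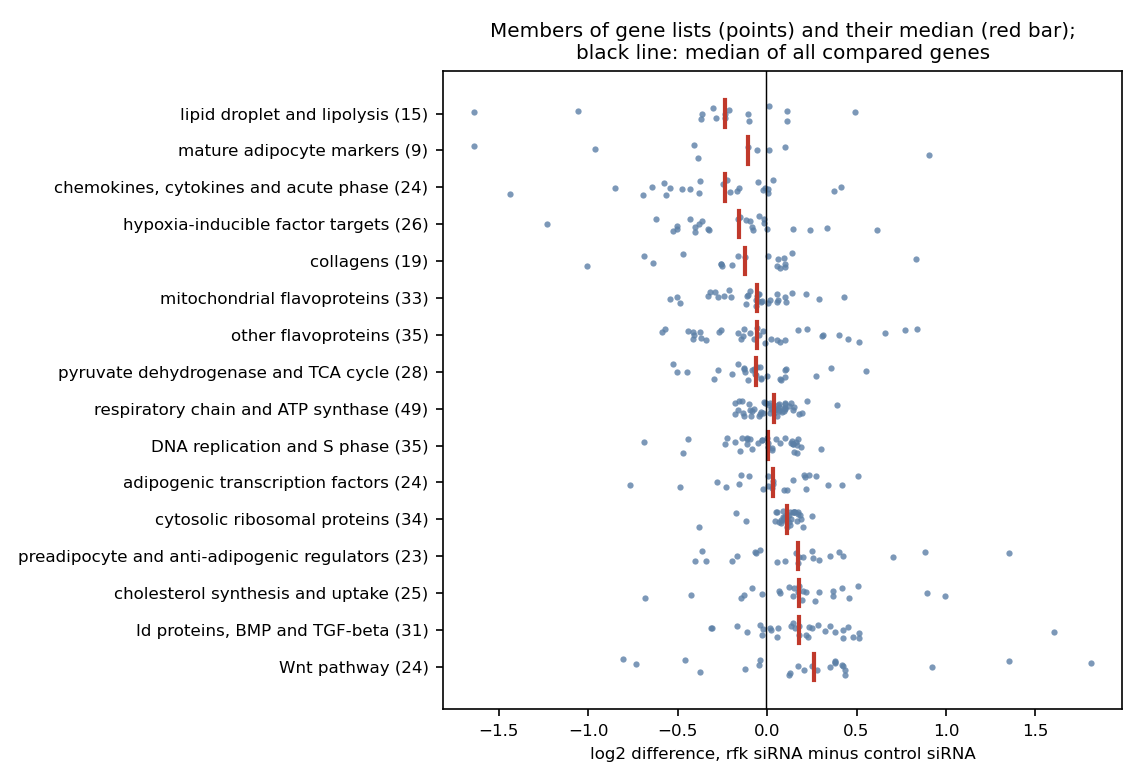
Each point is a compared gene of 1 of 16 gene lists, placed by its log2 difference (rfk siRNA minus control siRNA). Red bars are list medians, numbers in parentheses count members, and the black line is the median of all compared genes, -0.01. Medians run from -0.24 (lipid droplet and lipolysis) to 0.26 (Wnt pathway).

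The Wnt pathway list, which holds ligands, receptors and antagonists, had 17 of 24 compared genes above control (48.5% of all compared genes) and a median of 0.26. At least 1.5-fold higher were 3 of the 24, beside 3.92% of all compared genes. Among these, the ligand gene Wnt10a (26.4 with control siRNA and 67.4 with rfk siRNA) and the secreted antagonist gene Sfrp4 (22.6 and 79.3), reached the filter only through arrays where they were high, so their place in the count was fixed by that, and the median includes them. Sfrp2, a further antagonist, had 266 and 504. On the lower side were Ccn5, which is induced by Wnt signals, with 1491 with control siRNA and 853 with rfk siRNA and 1655 and 1500 elsewhere, and Notum, an enzyme that inactivates Wnt ligands, at -0.73. Below the filter were 21 of the 45 Wnt genes on the arrays.

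Of 23 preadipocyte and anti-adipogenic genes 15 were higher (48.5% of all compared genes), with a median of 0.17. Past 1.5-fold upward were 3, beside 3.92% of all compared genes, and Wnt10a is again one of them. Sox9, which represses C/EBP genes, had 915 in the control array, 1491 with rfk siRNA, 1023 with aof2 siRNA and 862 with tranylcypromine. Pi16, a marker of fibroblast progenitors, was at 0.88, though at -0.16 relative to the average of the 3 other arrays, and Dlk1, the preadipocyte factor, at 0.40 for its brighter and 0.74 for its dimmer probe set. Relative to the average of the 3 other arrays the median of this list was 0.01, whereas that of the Wnt list was 0.21. Among genes of Id proteins, BMP and TGF-beta signalling 24 of 31 were higher, with a median of 0.18, but only Id4 passed 1.5-fold. Tgfb2 was at 0.52, the BMP decoy receptor gene Bambi at 0.48, the receptor gene Bmpr1a at 0.42 and the antagonist gene Fst at -0.31.

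Matrix and cytoskeletal genes differed in both directions. In the list of other matrix proteins 4 of 26 were at least 2-fold higher, beside 0.927% of all compared genes: Dcn, Ogn, Thbs1, which encodes thrombospondin 1 (93.1 and 220), and Fbln5, an elastic fibre protein (2868 and 6156). Fbln5 has a further probe set with a control signal of 29.6 that gave -2.73, and their mean put the gene below control. Of 19 collagen genes 3 were at least 1.5-fold lower, beside 3.8% of all compared genes: Col1a1, Col7a1 (-0.69) and Col11a1 (-0.64), while the median of the list was -0.12 and Col1a2 was at 0.10. In the actin list 22 of 34 were higher (48.5% of all compared genes), with a median of 0.05. At least 1.5-fold higher were 3 and that much lower 2, beside 3.92% and 3.8% of all compared genes. Its highest members were Fam107a (2.33) and Abi3bp (1.47), for which the control array was the lowest of the 4. Srf, the transcription factor of actin genes, was at 0.80 with a second probe set at -0.13. On the lower side Tagln, a smooth muscle marker, was at -1.13 from 123, Pdlim7 at -0.67 and Rhoc at -0.50.

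Early response genes of growth factor signalling included some of the highest genes. Egr1, a zinc finger transcription factor, had 722 in the control array, 1827 with rfk siRNA, 1315 with aof2 siRNA and 1368 with tranylcypromine. Fos had 193 and 436, at 1.17, and the phosphatase genes Dusp6 and Dusp5, which restrain MAP kinases, were at 0.82 and 0.80. Junb (-0.77), Crem (-0.59) and Jund (-0.50) lay below control. The list of 34 had 19 higher (48.5% of all compared genes) and a median of 0.08. At least 1.5-fold higher were 6 of the 34 and 2 were that much lower, beside 3.92% and 3.8% of all compared genes. At least 2-fold higher were 3, Egr1, Fos and Pde10a (1.06), beside 0.927% of all compared genes. Each gene named here except Crem and Pde10a was measured by 1 probe set above the filter.

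Inflammatory and hypoxia-related genes were mostly lower. Of 24 chemokine, cytokine and acute phase genes 5 were higher (48.5% of all compared genes), with a median of -0.23. At least 1.5-fold lower were 4 of the 24, beside 3.8% of all compared genes. These were Il11 (289 and 107), Ccl7 (1359 and 752), Ccl2 (1121 and 692) and Lcn2 (7864 and 5026), which encode a cytokine, a pair of monocyte-attracting chemokines and lipocalin 2. Il11, Ccl7 and Ccl2 were lower in all 3 treated arrays, and relative to the average of the 3 other arrays the list's median was -0.10. Of 26 targets of hypoxia-inducible factors 4 were higher (48.5% of all compared genes), with a median of -0.16. Against control, this list's median was -0.29 with aof2 siRNA and -0.02 with tranylcypromine. At least 1.5-fold lower were 2 of the 26 and 1 was that much higher, beside 3.8% and 3.92% of all compared genes. The lower side was led by Plod2, the mitophagy receptor gene Bnip3 (5083 and 3303), the glucose transporter gene Slc2a1 (4635 and 3215) and Pdk1 (2416 and 1705), which limits pyruvate use. For Bnip3, Slc2a1 and Pdk1 the control array was the highest of the 4.

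Cholesterol synthesis genes lay slightly above control. Of 25 compared genes of sterol synthesis and uptake 19 were higher (48.5% of all compared genes), with a median of 0.18. Past 1.5-fold upward were 2, beside 3.92% of all compared genes. Tm7sf2, a sterol reductase, had 613 in the control array, 1218 with rfk siRNA, 1020 with aof2 siRNA and 2259 with tranylcypromine. Dhcr7, the last reductase of the pathway, had 467, 868, 700 and 1029 in that order, and Idi1, an isomerase of the isoprenoid steps, 7958, 11337, 9081 and 11626. In all 3 the control array was lowest and the tranylcypromine array highest. Insig1, which retains the sterol-sensing complex in the endoplasmic reticulum, was the exception at -0.69 (2106 and 1310), and the cholesterol transporter gene Npc1 was at -0.43. Relative to the average of the 3 other arrays the list's median was 0.06.

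**Figure D5:**
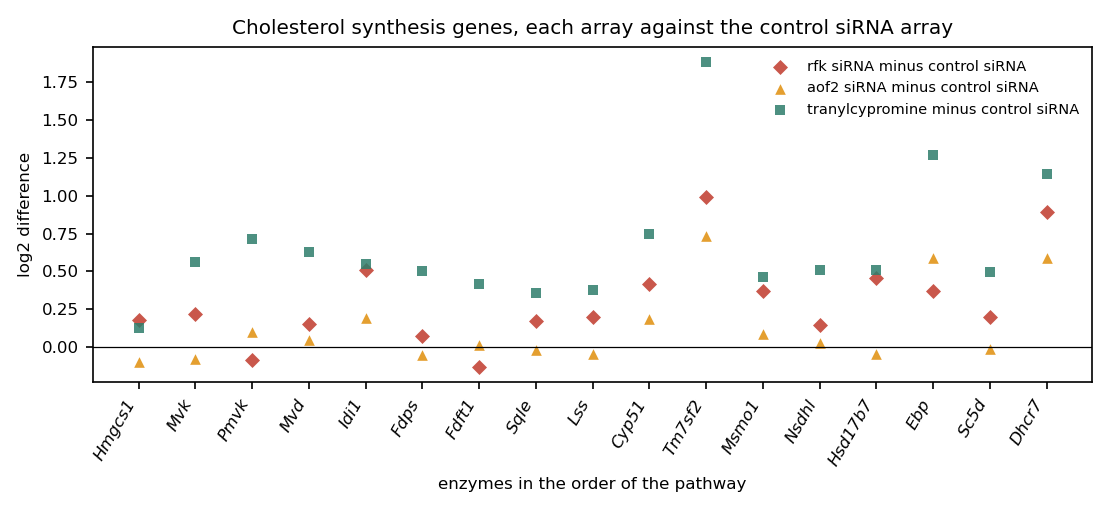
Log2 difference from the control siRNA array for cholesterol synthesis enzymes, in the order of the pathway, for the rfk siRNA, aof2 siRNA and tranylcypromine arrays, which share that control. With rfk siRNA the values run from -0.13 for Fdft1 to 0.99 for Tm7sf2, and Tm7sf2 and Dhcr7 are the highest.

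The promoters of this list were searched for 2 sequence motifs of sterol-regulated genes, chosen after the values were seen: CCAAT, the site of factor NF-Y, and TCACNCCAC, a form of the sterol response element. Both strands were searched from 250 bases before to 50 after each annotated start (RefSeq, GRCm38.p6). CCAAT occurred in 73.1% of the 26 promoters of the list and in 37.4% of all 32851 promoters. By gene, it occurred in 19 of the 20 list genes that matched and in 41.1% of all 27025 genes. The rest of the 25 compared genes of the list matched no promoter. TCACNCCAC occurred in 1 of the 26 promoters, that of Hmgcs1, and in 1.24% of all. A match describes letters only. The promoters of Tm7sf2 (chr19:6067801-6068100, minus strand) and Idi1 (chr13:8885356-8885655, plus strand) are shown for 2 genes above control with CCAAT near the start, Hmgcs1 (chr13:119690101-119690400, plus strand), at 0.18, as the one with both motifs, and Dhcr7 (chr7:143822917-143823216, plus strand), at 0.90, as one with neither. Dhcr7 has 3 annotated promoters, of which 2 hold neither motif and 1 holds CCAAT. The promoter of Insig1, the gene furthest below control at -0.69, holds CCAAT too, at position -216 from the start. Capitals mark either motif on either strand, so CCAAT also appears as ATTGG.
Tm7sf2: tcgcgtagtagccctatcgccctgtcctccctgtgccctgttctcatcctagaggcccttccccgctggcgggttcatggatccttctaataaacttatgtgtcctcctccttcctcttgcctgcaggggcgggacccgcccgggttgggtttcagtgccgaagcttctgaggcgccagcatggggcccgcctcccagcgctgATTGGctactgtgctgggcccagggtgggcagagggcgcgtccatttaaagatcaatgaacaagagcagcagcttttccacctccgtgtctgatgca
Idi1: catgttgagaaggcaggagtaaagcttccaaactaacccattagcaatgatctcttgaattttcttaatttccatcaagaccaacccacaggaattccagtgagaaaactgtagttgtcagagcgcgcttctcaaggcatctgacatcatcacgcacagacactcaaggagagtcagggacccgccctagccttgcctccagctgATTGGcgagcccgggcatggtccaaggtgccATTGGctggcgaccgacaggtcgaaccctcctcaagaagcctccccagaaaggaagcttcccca
Dhcr7: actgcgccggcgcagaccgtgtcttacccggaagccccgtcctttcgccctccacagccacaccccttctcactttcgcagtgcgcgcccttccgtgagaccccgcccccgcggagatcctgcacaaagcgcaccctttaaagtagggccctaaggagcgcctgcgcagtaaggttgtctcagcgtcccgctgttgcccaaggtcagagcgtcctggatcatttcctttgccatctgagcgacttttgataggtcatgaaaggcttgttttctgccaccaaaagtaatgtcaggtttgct
Hmgcs1: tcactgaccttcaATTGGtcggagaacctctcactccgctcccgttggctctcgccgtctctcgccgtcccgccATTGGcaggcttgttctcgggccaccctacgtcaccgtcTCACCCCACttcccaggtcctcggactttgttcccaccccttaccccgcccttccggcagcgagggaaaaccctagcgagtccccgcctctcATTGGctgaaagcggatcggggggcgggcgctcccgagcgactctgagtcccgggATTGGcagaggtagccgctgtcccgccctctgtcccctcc

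Other pathways showed little difference. The 35 S phase genes had a median of 0.00 and the 35 genes of G2 and mitosis one of -0.03, and of both lists E2f2 alone passed 1.5-fold, at -0.69, with a second probe set at 0.14. Of 34 cytosolic ribosomal protein genes 31 were higher (48.5% of all compared genes), with a median of 0.11 and none past 1.5-fold. The 30 genes of G1 control and p53 targets had a median of 0.00. Heat shock genes were at -0.01, interferon genes at -0.02, glucocorticoid response genes at -0.03, unfolded protein response genes at -0.06 and NRF2 targets at -0.09. Hmox1, heme oxygenase, was the lowest NRF2 target at -0.72 (1747 and 1058), although the other treated arrays were at 1222 and 1119.

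Among aldehyde dehydrogenases and retinoid genes, 5 of 22 were at least 1.5-fold higher and 3 were that much lower, beside 3.92% and 3.8% of all compared genes. Aldh1a1 and Dhrs3, a retinaldehyde reductase gene, reached the filter only through arrays where they were high, which fixed their place in that count. Aldh1a1, the cytosolic retinaldehyde dehydrogenase, had 9.66 in the control array, 93.0 with rfk siRNA, 142 with aof2 siRNA and 72.2 with tranylcypromine. Aldh1a1 and Aldh1a7 are similar in sequence, and the sources used here do not show whether their probe sets separate them. Rdh10, which makes retinaldehyde, had 731 and 1216 and a second probe set at 0.96, and Cyp26b1, which degrades retinoic acid, was at 0.88. Aldh3a1 (119 and 50.5), Rdh5 (103 and 51.4) and the receptor gene Rara (116 and 59.2) were low in both arrays.

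Markers of other cell types were near the filter. Of 65 marker genes on the arrays for macrophages, endothelium, skeletal muscle, cartilage and bone, epithelium, nerve tissue and liver, 15 were compared. The summed signal of the macrophage list was 571 with control siRNA and 381 with rfk siRNA, and that of the skeletal muscle list 346 and 508. For cartilage and bone it was 1104 and 1735, mostly from Sox9. For endothelium it was 262 and 278, for epithelium 423 and 435, for nerve tissue 356 and 375, and for liver 189 and 172. The 10 fibroblast genes had summed signals of 99098.8 and 106697, and 9 of them were compared. The part of these differences in the results above was not tested.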

How the data were processed

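Expression was measured in 4 cultures of differentiating 3T3-L1 cells, each on 1 array with 45101 probe sets, from 250 ng of RNA. The authors deposited a linear intensity per probe set, made with MAS5 per the submitters' processing notes, with its version, scaling target and detection calls not given in the sources used here. Trimmed by 2% at each end, the mean signal was 500.003 on each array, so arrays had been scaled, which hides differences in total RNA per cell.

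Log2 was taken with no offset. Of 34958 probe sets with 1 gene symbol in the platform annotation, 34754 matched RefSeq gene identifiers (GRCm38.p6), and 932 with several symbols named no gene. Groups came from the labels. With 1 array per group, calls are folds of 2 or 1.5 with no p-value, and the number of arrays limits the precision. The members, the 51 gene lists (1319 genes, 1219 of them on the arrays) and the rules were chosen with earlier results of these data known. Named genes were Rfk, the flavin supply genes, the 15 highest and 15 lowest bright genes, the 10 at each end by their probe set nearest to 0, the 10 at each end by their smallest gap to another array, and up to 4 members per list. Others were named after their values were seen. Alternatives covered scaling, an offset, the filter, the probe set per gene, the reference array and the threshold. The steps were tested on simulated data. Python 3.11.15, NumPy 2.4.6, pandas 2.3.3 and matplotlib 3.10.9 were used.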

Additional observations from a re-analysis of the deposited data

How the results depend on the processing

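No paired analysis was possible because each group had 1 array. The Rfk log2 difference lay between -1.91 and -1.64 under the 8 alternatives. The 100 higher and 87 lower genes became 99 and 87 with arrays centred on their medians, 101 and 81 with quantile normalization, and 94 and 76 without probe sets that match several transcripts. They became 44 and 27 with 50 added before the log, 1809 and 1697 without a filter, 23 and 17 with the filter at the 75th percentile, 142 and 149 with the mean of all probe sets, and 423 and 410 at 1.5-fold. With the average of the 3 others as baseline they became 42 and 104, so that 28.8% were higher in place of 53.5%. The median of all compared genes stayed between -0.01 and 0.00. Of 1438 values of 194 named genes under these settings, 1267 moved by less than 0.29, the median spread between probe sets of a gene, and 35 values of 29 genes changed sign. The genes at least 2-fold apart as reported that changed sign were Dhrs3 at -0.65 and Scrn1 at -0.17 against the other arrays, and Fbln5 at -0.82 and Rab8b at -0.076 with the mean of all probe sets, where a dim probe set enters. No list median moved by more than 0.29, but 17 of 44 medians changed sign at least once. The cause of the other shifts was not tested.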

Other observations

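Dim genes held the widest differences. Ppp1r1b, which encodes an inhibitor of protein phosphatase 1, had signals of 9.50 in the control array, 221 with rfk siRNA, 202 with aof2 siRNA and 387 with tranylcypromine. Mycn had 14.1, 146, 83.1 and 60.3 in the same order, and Nfatc2 had 23.5, 146, 61.3 and 104, although the probe sets of Nfatc2 ranged from -0.29 to 2.64. In these genes the control array lay below the filter of 50.9, so a fold has no firm base. On the lower side Ces5a, a carboxylesterase gene, had 414 in the control array, 75.7 with rfk siRNA, 399 with aof2 siRNA and 497 with tranylcypromine, and thus stood apart with rfk siRNA alone. Carns1 had 77.4 and 10.0 in the control and rfk siRNA arrays. These genes were chosen after their values were seen, and each of them except Nfatc2 had 1 probe set above the filter.

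Dbp and Ciart, clock genes with a time-dependent output, were lower with rfk siRNA. For Dbp the signals were 685 with control siRNA and 435 with rfk siRNA, and for Ciart 149 and 82.7. Dbp was also low in the other treated arrays, at 314 and 345, and stood at 0.049 relative to the average of the 3 others. The core genes Arntl, Clock and Per1 differed by 0.03, 0.02 and 0.07. Of 16 clock genes 7 were higher (48.5% of all compared genes), with a median of -0.08, which was 0.04 relative to the average of the 3 other arrays. At least 1.5-fold lower were 3 of the 16, Dbp, Ciart and Cry1, beside 3.8% of all compared genes.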
